A study of Homo sapiens with 6 samples.

Results

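Collagen chains are the alpha chains whose genes carry a symbol of the form COL, number, A, number. They were taken from the expression table of MDA-MB-231 cells by that symbol, pseudogenes excluded, which gave 40 genes of 31835. Of these 40, 13 had a mean of at least 1 FPKM (fragments mapped to a gene per kilobase of its transcript and per unit of library size) over the 6 libraries and were tested, together with 11897 genes in all. The list of collagen genes also held COL2A1, COL9A1, COL22A1 and COL25A1, which had no matching entry in the expression table.

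MDA-MB-231 is a widely used cell line from a metastatic breast cancer, negative for hormone receptors and of mesenchymal form. One group of 3 libraries came from cells made to overexpress ADAMTS1, and the other group of 3 came from the same line with the vector, with no further treatment named. ADAMTS1 is a secreted metalloprotease with thrombospondin motifs that acts on matrix proteins. The labels do not give the promoter, the form of ADAMTS1 encoded, the time after transfer, or whether the cells were a pool or a clone, and they do not state that libraries of a group came from separate cultures. The p-values below therefore measure the spread between these libraries, which may be technical.

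Every collagen molecule is a triple helix of 3 alpha chains, built from glycine repeats and assembled in the endoplasmic reticulum. Fibrillar collagens form the tensile fibres of connective tissue, type IV forms the sheet-like network of basement membranes, type VI forms beaded filaments at the cell surface, and type VII forms the fibrils that anchor epithelium to stroma. Transmembrane and multiplexin collagens release ectodomains or fragments such as endostatin, and in a breast tumour the fibrillar types are made chiefly by stromal fibroblasts.

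ADAMTS1 itself was at 499, 462 and 501 FPKM in the ADAMTS1 libraries and at 6.56, 6.72 and 6.99 FPKM in the vector libraries, so each library matched its label. ADAMTS1 rose by 5.98 ± 0.040 on the log2(FPKM + 1) scale (estimate ± SE; limma, Benjamini-Hochberg adjusted p = 8.8e-10). Depth relative to the first vector library was 1.04 to 1.43 in the ADAMTS1 libraries and 1 to 1.26 in the vector libraries, and the absolute depth is unknown. The summed markers of a mesenchymal tumour cell (VIM, CD44, AXL, CAV1 and ZEB1) were at 813 to 837 FPKM in ADAMTS1 libraries and 799 to 836 FPKM in vector libraries. The 5 fibroblast markers found of 7 listed summed to 0.0562 to 0.118 FPKM in ADAMTS1 libraries and 0.140 to 0.205 FPKM in vector libraries. PDGFRB averaged 0.0683 FPKM in ADAMTS1 cells and 0.156 FPKM in vector cells. FAP (0.0191 and 0.00238 FPKM) and THY1 (0.00637 and 0.00544 FPKM) averaged higher in ADAMTS1 cells. PDGFRA and DCN were listed at 0 in the ADAMTS1 libraries and averaged only 0.00219 and 0.00162 FPKM in vector cells. Endothelial markers summed to 0.589 to 0.732 FPKM in ADAMTS1 libraries and 0.516 to 0.861 FPKM in vector libraries, and the part of such cells in the collagen values was not tested. The 7 luminal epithelial markers summed to 134 to 141 FPKM in ADAMTS1 libraries and 138 to 146 FPKM in vector libraries, nearly all of it from the keratins KRT18 (72.7 and 75.7 FPKM in ADAMTS1 and vector cells) and KRT8 (61.5 and 62.0 FPKM). EPCAM averaged 3.28 and 2.74 FPKM and the estrogen receptor gene ESR1 0.0332 and 0.0192 FPKM in ADAMTS1 and vector cells. In bulk RNA, fewer cells of a type and less RNA per cell cannot be told apart.

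The promoters of 4 chain genes are shown. The interval between COL4A1 and COL4A2 serves both of the type IV chains described below, COL7A1 and COL17A1 are chains with changes of opposite sign, and COL6A2 stands for the type VI genes of chromosome 21. Sequences are from RefSeq (GRCh38.p14), written 5′ to 3′ on the strand of the gene. Capitals mark matches, on either strand, to the TATA box (letters TATAAA), to the CCAAT box (letters as its name) or to the GC box (letters GGGCGG).
COL4A1-COL4A2: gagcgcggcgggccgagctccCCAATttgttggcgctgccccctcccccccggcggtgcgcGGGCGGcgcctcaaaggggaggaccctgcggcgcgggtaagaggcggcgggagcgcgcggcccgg
COL7A1: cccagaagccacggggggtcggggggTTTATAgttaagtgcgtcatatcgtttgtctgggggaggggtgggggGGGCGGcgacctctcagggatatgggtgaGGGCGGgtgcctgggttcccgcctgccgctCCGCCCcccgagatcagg
COL6A2: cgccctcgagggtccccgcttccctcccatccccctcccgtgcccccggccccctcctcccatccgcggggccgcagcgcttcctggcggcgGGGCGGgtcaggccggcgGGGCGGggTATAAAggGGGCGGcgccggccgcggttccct
COL17A1: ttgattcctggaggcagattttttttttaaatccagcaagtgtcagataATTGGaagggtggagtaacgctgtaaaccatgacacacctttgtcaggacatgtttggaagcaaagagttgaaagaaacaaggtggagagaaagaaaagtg

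The first is the whole interval of 126 bases between the start sites of COL4A1 (minus strand) and COL4A2 (plus strand), at chr13:110307158-110307283 and written on the plus strand. It is 80.2% G and C. The others are the 150 bases before the start of COL7A1 (chr3:48595330-48595479, minus strand), COL6A2 (chr21:46097962-46098111, plus strand) and COL17A1 (chr10:104085881-104086030, minus strand). Their G and C share was 68.0% for COL7A1, 80.7% for COL6A2 and 40% for COL17A1. Over the 34943 RefSeq promoters, taken as the 250 bases before each start, 42.5% held the GC box, 32.0% the CCAAT box and 10.8% the TATA box, and the AP-1 motif TGANTCA was in 6.59%. The table held promoters of 30 of the 40 chains and of 10 of the 13 tested. In 250 bases before its most upstream start COL18A1 had 9 matches to the GC box and 88.4% G and C, while COL17A1 had 0 such matches and 40.4% G and C. These are the extremes. COL13A1 also had 0 matches, at 64% G and C, and a second start of COL18A1 had 1, at 66.4%. COL4A1 and COL4A2 had 2 and 1 matches, at 77.6% and 78.8%. Promoter letters were not compared with the changes. None of the promoters of those 10 chains held the AP-1 motif. A match describes the letters only.

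The cells expressed chains of basement membranes, anchoring fibrils, beaded filaments and cell surfaces, and also fibrillar and short-chain network chains. The 13 tested chains ran from 1.24 FPKM for COL1A1 to 24.6 FPKM for COL4A2, as means over the 6 libraries. COL1A1 was the last inside the filter, with COL5A2 at 0.995 FPKM and COL4A5 at 0.971 FPKM just outside it. Another 6 chains averaged between 0.1 and 1 FPKM. The remaining 21 averaged under 0.1 FPKM, with no library above 0.136 FPKM, and 15 of them were listed at 0 in at least 1 library. The 6 most abundant, COL4A2, COL7A1, COL8A1, COL6A1, COL5A1 and COL18A1, held 68.0% of the summed collagen FPKM in ADAMTS1 cells and 68.9% in vector cells. Type IV chains summed to 37.0 FPKM in ADAMTS1 cells and 35.9 FPKM in vector cells, and type VI chains to 25.8 and 29.2 FPKM in ADAMTS1 and vector cells. Fibrillar chains summed to 21.4 and 22.7 FPKM, short-chain network chains to 18.8 and 17.8 FPKM, and transmembrane chains to 15.9 and 16.1 FPKM, in the same order.

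**Figure D1:**
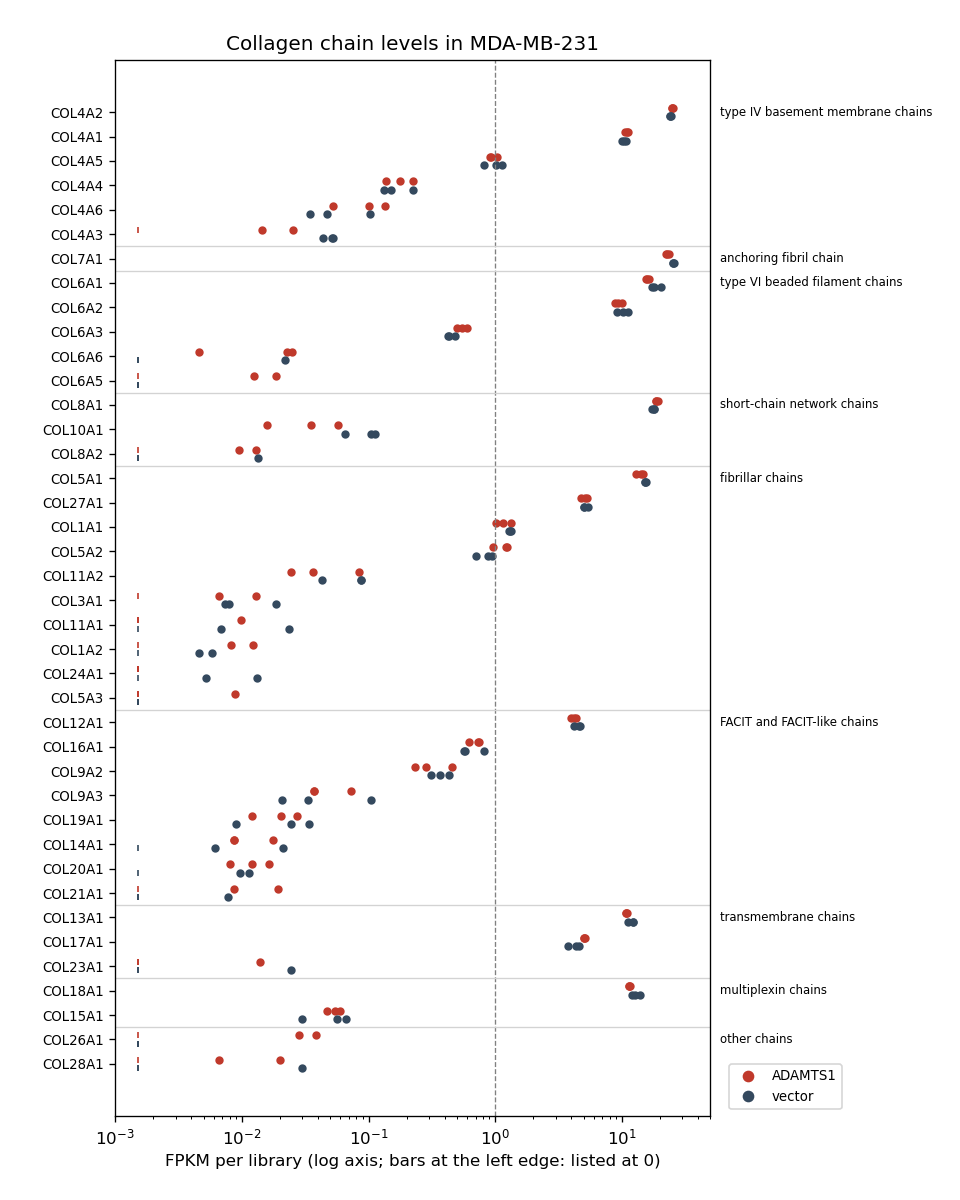
FPKM per library (log axis) of all 40 chains by type, 3 ADAMTS1 points above 3 vector points in each row, with bars at the left edge for libraries listed at 0 and a dotted line at 1 FPKM. Tested chains run from 1.24 FPKM for COL1A1 to 24.6 FPKM for COL4A2 as means over 6 libraries, and 21 chains average under 0.1 FPKM.

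Summed over all 40 chains, collagen made up 160.5, 157.8 and 158.0 FPKM in the ADAMTS1 libraries and 169.8, 164.4 and 163.2 FPKM in the vector libraries. The highest ADAMTS1 library lay below the lowest vector library. The sum was 0.0600 to 0.0614% of all FPKM in the ADAMTS1 libraries and 0.0626 to 0.0655% in the vector libraries. No test was made of this sum.

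No chain passed the threshold in the comparison of ADAMTS1 with vector cells. By limma with Benjamini-Hochberg adjustment over all genes tested, 0 of the 13 chains had an adjusted p under 0.05, where 8 of 11897 genes (0.0672%) did. At an unadjusted p under 0.05, 2 chains were higher (15.4% of the 13, beside 5.42% of all genes tested) and 5 lower (38.5%, beside 6.78%), 7 in either direction (53.8%, beside 12.2%). The groups did not overlap for 3 chains on the higher side (23.1%, beside 8.15%) and 5 on the lower side (38.5%, beside 10.6%), 8 in all (61.5%, beside 18.8%). These shares lie above the background of all genes. The members of the set were chosen with earlier results of these data known. The shares therefore cannot show that chains changed more often than other genes. The background also differs from the chains in GC content of the transcript, with a median of 48.2% against 61.1% for the chains. Of 1688 tested genes above 60% GC, 73 were higher and 184 lower at an unadjusted p under 0.05. The median change of the 13 chains was −0.098 on the log2(FPKM + 1) scale and that of all genes tested −0.0078. Of the chains 9 had a negative and 4 a positive change, and the 13 changes ran from −0.21 to 0.21, or −14.5% to 18.8% in FPKM. Their 95% intervals reached no further than −0.349 and 0.370.

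The upper quartile was taken over the genes above 0 in each library. It was 6.10, 6.51 and 6.29 FPKM in ADAMTS1 libraries and 6.88, 6.63 and 6.46 FPKM in vector libraries. These genes numbered 23846 to 24888 in ADAMTS1 libraries and 23395 to 24170 in vector libraries. Scaling the libraries to a common upper quartile moved the median change of all genes by 0.0684 upward and gave 4 chains higher and 1 lower at an unadjusted p under 0.05, where 14.3% of all genes tested were higher and 1.39% lower. Scaling by the median of ratios moved that median by 0.00735, and the part of depth in either shift was not tested. With upper-quartile scaling the chains had a median of −0.034, against 0.0605 over all genes, and the single chain on the lower side was COL6A1, at −0.14. The 7 chains at an unadjusted p under 0.05 became 4 without ADAMTS1 replicate 2, without ADAMTS1 replicate 3 or without vector replicate 1. In these 3 fits the share of all genes was 9.51%, 10.7% and 10.4% in turn, against 12.2% with all libraries. No chain passed an adjusted p of 0.05 in any of 15 other settings, and the lowest was 0.112, for COL7A1 among genes with a mean of at least 5 FPKM.

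**Figure D2:**
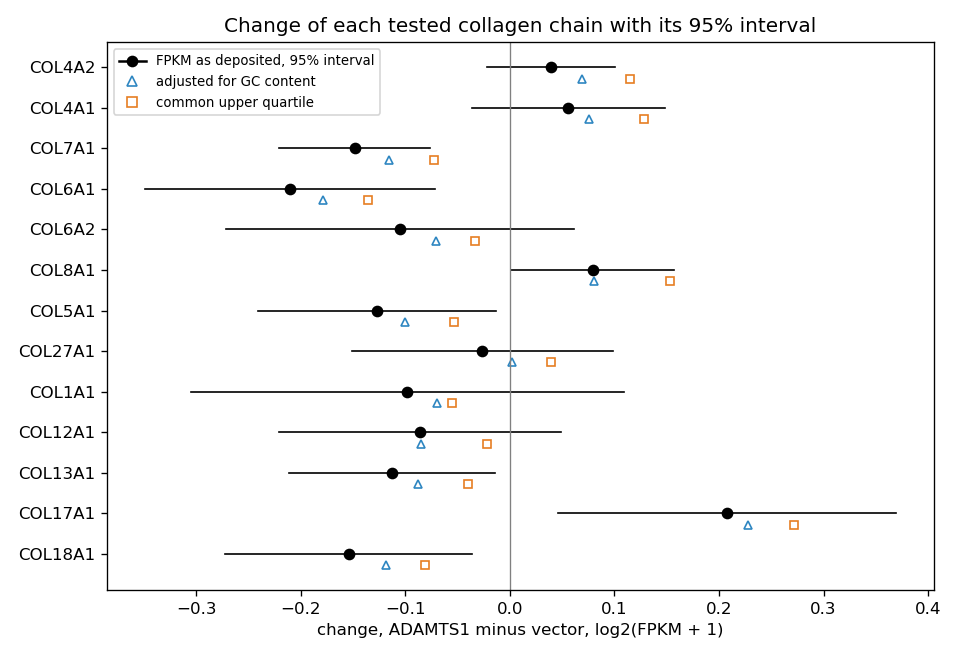
Change of each tested chain between ADAMTS1 and vector cells in log2(FPKM + 1), as a black point with the limma 95% interval over 3 libraries per group, with triangles for the change adjusted for GC content and squares for a common upper quartile. The black points run from −0.21 for COL6A1 to 0.21 for COL17A1, and no chain had an adjusted p under 0.05.

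Type IV chains COL4A1 and COL4A2 combine in the most widespread basement membrane molecule, as a pair of alpha1 chains with an alpha2 chain. COL4A2 (ENSG00000134871, hg38 chr13:110305812-110513209) was at 25.1, 24.7 and 24.9 FPKM in ADAMTS1 libraries, against 24.6, 24.1 and 24.0 FPKM in vector libraries. Every ADAMTS1 value lay above every vector value. The change was 0.04 ± 0.026 (limma adjusted p = 0.593). COL4A1 (ENSG00000187498, chr13:110148963-110307157) was at 11.1, 10.97 and 10.5 FPKM in ADAMTS1 libraries and 10.7, 10.1 and 10.4 FPKM in vector libraries, so the groups overlapped, with a change of 0.06 ± 0.039 (limma adjusted p = 0.614). It was 0.03 without vector replicate 2 and 0.13 with upper-quartile scaling, which gave 0.11 for COL4A2.

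The COL4A1 and COL4A2 genes lie head to head, and the deposited gene models overlap by 1346 bases. The ratio of COL4A2 to COL4A1 within a library was 2.26, 2.25 and 2.37 in the ADAMTS1 libraries and 2.29, 2.39 and 2.30 in the vector libraries. The 6 ratios overlapped, and each is a ratio of FPKM, not of chains in molecules. Of the other type IV genes, COL4A5 was at 0.923, 1.04 and 0.903 FPKM in ADAMTS1 libraries and 0.819, 1.13 and 1.0197 FPKM in vector libraries, also with overlap. COL4A4, a chain of the adult glomerular membrane, was at 0.226, 0.178 and 0.138 FPKM in ADAMTS1 libraries and 0.133, 0.226 and 0.152 FPKM in vector libraries. In RefSeq, COL4A4 and COL4A3 start 418 bases apart and COL4A6 and COL4A5 start 379 bases apart at the nearest.

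**Figure D3:**
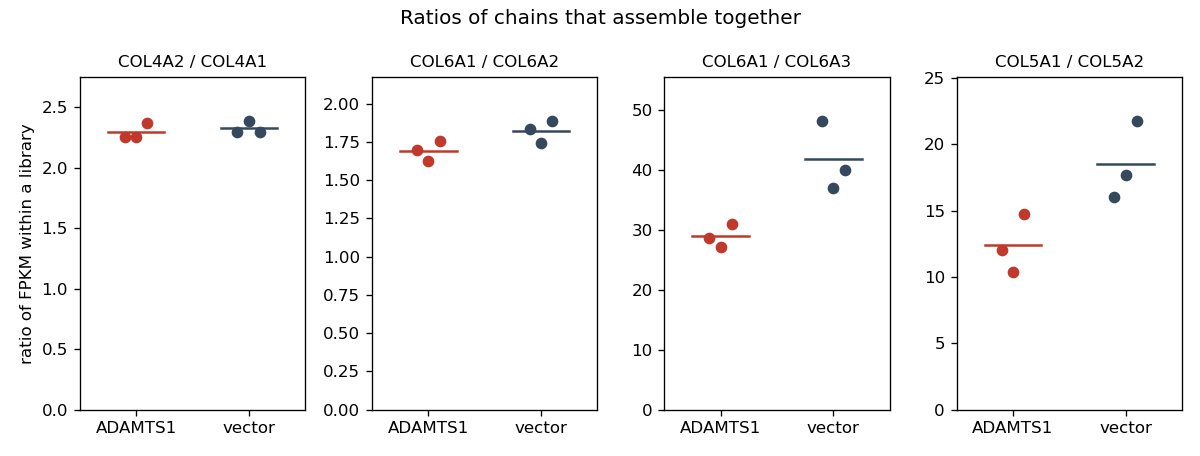
Ratio of FPKM between chains of 1 type within a library, 1 point per library, with bars for the group mean and ADAMTS1 left of vector. The COL4A2 to COL4A1 ratios lie between 2.25 and 2.39 in both groups, while those of COL6A1 to COL6A3 are 27.2 to 31.1 in ADAMTS1 libraries and 37.1 to 48.3 in vector libraries.

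COL7A1 encodes the sole chain of type VII collagen, which forms anchoring fibrils. COL7A1 (ENSG00000114270, chr3:48564073-48595329) was at 23.7, 22.4 and 22.6 FPKM in ADAMTS1 libraries, against 25.7, 25.3 and 25.5 FPKM in vector libraries. Every ADAMTS1 library lay below every vector library. The mean was 22.9 ± 0.701 FPKM in ADAMTS1 cells and 25.5 ± 0.213 FPKM in vector cells (SD, n = 3 each), a ratio of 0.899. The change was −0.15 ± 0.031, with an unadjusted p of 0.00181 by limma and an adjusted p of 0.181, the lowest of the 13 chains. With upper-quartile scaling it was −0.07 (limma unadjusted p = 0.199, adjusted p = 0.516).

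The type VI chains COL6A1 and COL6A2 form a trimer with the longer COL6A3. COL6A1 (ENSG00000142156, chr21:45981770-46005050) was at 15.8, 16.2 and 15.5 FPKM in ADAMTS1 libraries, against 20.4, 17.8 and 17.4 FPKM in vector libraries. The groups lay apart, and vector replicate 1 was the highest of the 6. The change was −0.21 ± 0.059 (limma unadjusted p = 0.00889, adjusted p = 0.255), and −0.14 without vector replicate 1. COL6A2 (ENSG00000142173, chr21:46098112-46132848) was at 9.31, 9.997 and 8.85 FPKM in ADAMTS1 libraries and 11.1, 10.2 and 9.22 FPKM in vector libraries. Its groups overlapped, with a change of −0.10 ± 0.071 (limma adjusted p = 0.598), and −0.04 without vector replicate 1. Leaving out vector replicate 3 gave −0.17 for COL6A2, leaving out ADAMTS1 replicate 3 gave −0.07, and upper-quartile scaling gave −0.03.

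COL6A3 lay below the filter and was at 0.551, 0.598 and 0.5002 FPKM in ADAMTS1 libraries and 0.423, 0.480 and 0.435 FPKM in vector libraries, with the ADAMTS1 libraries above. With no filter on low values its change was 0.10 ± 0.079 (limma adjusted p = 0.784). The ratio of COL6A1 to COL6A2 was 1.70, 1.62 and 1.76 in ADAMTS1 libraries and 1.84, 1.74 and 1.89 in vector libraries, which overlapped. The ratio of COL6A1 to COL6A3 was 28.7, 27.2 and 31.1 in ADAMTS1 libraries and 48.3, 37.1 and 40.003 in vector libraries, which did not overlap. None of these ratios was tested.

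COL6A1, COL6A2 and COL18A1 lie within 0.728 Mb on chromosome 21 of hg38, with no other tested gene in the span. ADAMTS1 is on the same chromosome at chr21:26835755-26845409. Of 113 tested genes on chromosome 21, 63 had a negative and 50 a positive change, with a median of −0.0095.

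COL18A1, a multiplexin chain that yields endostatin, was at 11.5, 11.6 and 11.3 FPKM in ADAMTS1 libraries (ENSG00000182871, chr21:45405165-45513720), against 13.8, 12.8 and 12.03 FPKM in vector libraries. Its groups lay apart and the ADAMTS1 libraries were the closer together. The change was −0.15 ± 0.050 (limma unadjusted p = 0.0175, adjusted p = 0.316), and −0.11 without vector replicate 1 and −0.08 with upper-quartile scaling. COL15A1, the other multiplexin, averaged under 0.1 FPKM.

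Among the fibrillar chains, COL5A1 regulates the start and width of fibrils. COL5A1 (ENSG00000130635, chr9:134641803-134844843) was at 14.7, 12.9 and 14.2 FPKM in ADAMTS1 libraries, against 15.2, 15.5 and 15.3 FPKM in vector libraries. The ADAMTS1 libraries lay below and were the more scattered, with a change of −0.13 ± 0.048 (limma unadjusted p = 0.0339, adjusted p = 0.364). It was −0.08 without ADAMTS1 replicate 2 and −0.05 with upper-quartile scaling. COL5A2, which joins COL5A1 in type V trimers, was at 1.22, 1.25 and 0.966 FPKM in ADAMTS1 libraries and 0.952, 0.877 and 0.701 FPKM in vector libraries, with the ADAMTS1 libraries above.

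With no filter on low values the change of COL5A2 was 0.22 ± 0.108 (limma adjusted p = 0.738). The ratio of COL5A1 to COL5A2 was 12.1, 10.4 and 14.7 in ADAMTS1 libraries and 16.0, 17.7 and 21.8 in vector libraries. These ratios did not overlap and were not tested.

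COL1A1, the alpha1 chain of type I collagen of bone and dermis, was at 1.01, 1.33 and 1.16 FPKM in ADAMTS1 libraries (ENSG00000108821, chr17:50184101-50201632), against 1.34, 1.29 and 1.31 FPKM in vector libraries. The groups overlapped (change −0.10 ± 0.088, limma adjusted p = 0.704), and the change was −0.04 without ADAMTS1 replicate 1, −0.15 without ADAMTS1 replicate 2 and −0.06 with upper-quartile scaling. Its partner COL1A2, the alpha2 chain of type I, was nearly silent. After scaling for relative depth the COL1A2 values were whole multiples of a step of 0.0058 FPKM, namely 2, 0 and 3 steps in ADAMTS1 libraries and 1, 0 and 1 steps in vector libraries. COL3A1, the chain of reticular fibres, named, as COL1A2 was, after its values were seen, stood at 1, 0 and 2 steps in ADAMTS1 libraries and 2, 1 and 1 steps in vector libraries. COL27A1, a fibrillar chain of cartilage, was at 5.33, 4.73 and 5.08 FPKM in ADAMTS1 libraries (ENSG00000196739, chr9:114155537-114312511) and 5.05, 5.36 and 5.06 FPKM in vector libraries.

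The COL27A1 groups overlapped, with a change of −0.03 ± 0.053 (limma adjusted p = 0.877). Its sign turned to 0.04 with upper-quartile scaling, to 0.012 without ADAMTS1 replicate 2 and to 0.0019 after adjustment for GC content.

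The 2 tested transmembrane chains had changes of opposite sign. COL17A1, the hemidesmosome collagen of epithelial cells, was at 5.04, 5.08 and 4.98 FPKM in ADAMTS1 libraries (ENSG00000065618, chr10:104031286-104085880), against 3.74, 4.63 and 4.35 FPKM in vector libraries. Every ADAMTS1 library lay above every vector library, and vector replicate 1 was the lowest. The mean was 5.04 ± 0.0499 FPKM in ADAMTS1 cells and 4.24 ± 0.458 FPKM in vector cells (SD, n = 3 each), a ratio of 1.19. The change was 0.21 ± 0.069 (limma unadjusted p = 0.0187, adjusted p = 0.324), and without vector replicate 1 it was 0.14 (adjusted p = 0.454).

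COL13A1, a chain of cell adhesion sites, was at 11.01, 10.7 and 10.9 FPKM in ADAMTS1 libraries (ENSG00000197467, chr10:69801880-69964275), against 12.2, 11.2 and 12.1 FPKM in vector libraries. The groups lay apart, with ADAMTS1 below (change −0.11 ± 0.042, limma unadjusted p = 0.0306, adjusted p = 0.357; −0.04 with upper-quartile scaling).

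COL8A1 encodes the alpha1 chain of type VIII, a short-chain network collagen of vessel walls. COL8A1 (ENSG00000144810, chr3:99638475-99799226) was at 18.5, 18.5 and 19.5 FPKM in ADAMTS1 libraries, against 17.99, 17.4 and 17.8 FPKM in vector libraries. The ADAMTS1 libraries lay above, with a change of 0.08 ± 0.033 (limma unadjusted p = 0.0482, adjusted p = 0.403), and 0.15 with upper-quartile scaling. COL12A1, a FACIT chain that decorates fibrils, was at 4.16, 3.997 and 4.37 FPKM in ADAMTS1 libraries (ENSG00000111799, chr6:75084326-75206267) and 4.17, 4.61 and 4.70 FPKM in vector libraries. The groups overlapped (change −0.09 ± 0.057, limma adjusted p = 0.596; −0.02 with upper-quartile scaling).

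COL16A1 and COL9A2, 2 further FACIT chains, lay below the filter with overlapping groups. COL16A1 was at 0.626, 0.747 and 0.726 FPKM in ADAMTS1 libraries and 0.563, 0.578 and 0.813 FPKM in vector libraries. COL9A2 was at 0.232, 0.285 and 0.459 FPKM in ADAMTS1 libraries and 0.313, 0.431 and 0.366 FPKM in vector libraries. COL10A1, the hypertrophic cartilage chain, named here after its values were seen, was at 0.0349, 0.0157 and 0.0573 FPKM in ADAMTS1 libraries and 0.0655, 0.112 and 0.104 FPKM in vector libraries. The COL10A1 groups did not overlap in FPKM. In steps they did overlap, at 3, 1 and 5 steps in ADAMTS1 libraries and 4, 8 and 8 steps in vector libraries. With no filter on low values the change of COL10A1 was −0.08 ± 0.030 (limma adjusted p = 0.661). COL4A3, also under 0.1 FPKM, was at 0.0254, 0 and 0.0143 FPKM in ADAMTS1 libraries and 0.0511, 0.0435 and 0.0527 FPKM in vector libraries, likewise apart in FPKM. Its adjusted p by limma with no filter was 0.676. The share of all low genes with groups apart was not worked out.

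**Figure D4:**
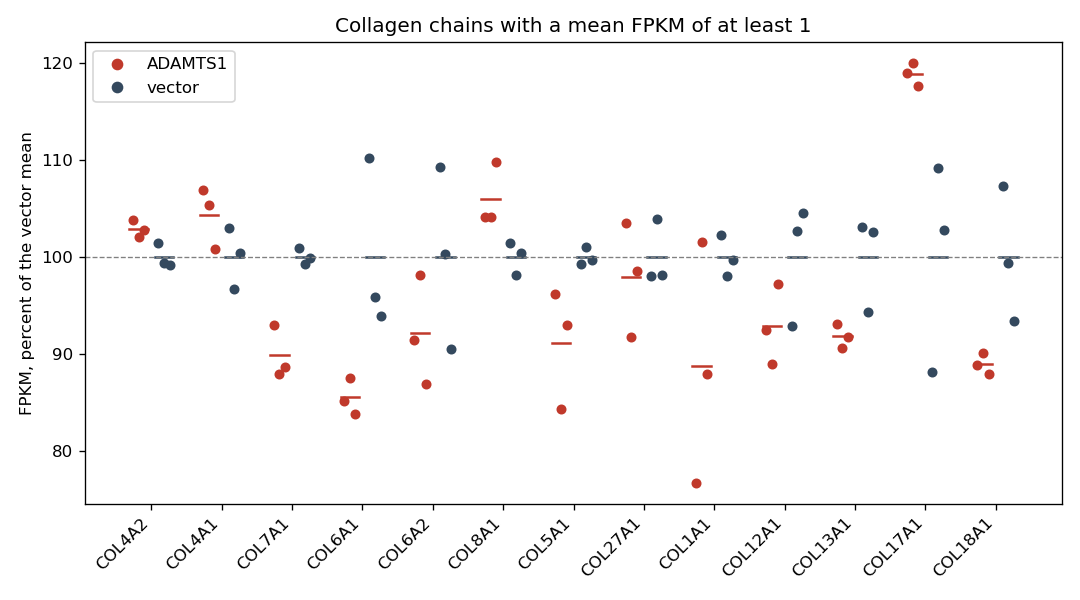
FPKM of each tested chain in every library as a percent of that chain's vector mean, ADAMTS1 points left of vector points, with bars for the group mean. The ADAMTS1 mean of COL17A1 differs from its vector mean by 18.8%, that of COL6A1 by −14.5%, and the 3 ADAMTS1 points of each lie outside its 3 vector points.

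Among the 13 chains, those with a higher GC content of the transcript had, for the most part, the lower changes. Their median GC content was 61.1%, from 46.3% for COL12A1 to 67.2% for COL18A1, and that of all tested genes was 48.2%. Across the 13 chains, Pearson's r between change and GC content was −0.505 and Spearman's rho −0.654, and across 11843 tested genes r was −0.097 and rho −0.142. Genes share library and processing, so these are descriptions without a test. Of 1688 tested genes above 60% GC, the median change was −0.030, and 73 were higher and 184 lower at an unadjusted p under 0.05. After adjustment for GC content, an alternative chosen after seeing the data, 3 chains were higher and 3 lower at an unadjusted p under 0.05, where 6.67% of all genes were higher and 5.79% lower. The chain median was then −0.070, with COL7A1 at −0.12 and COL6A1 at −0.18. The part of GC content in the differences was not otherwise tested.

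**Figure D5:**
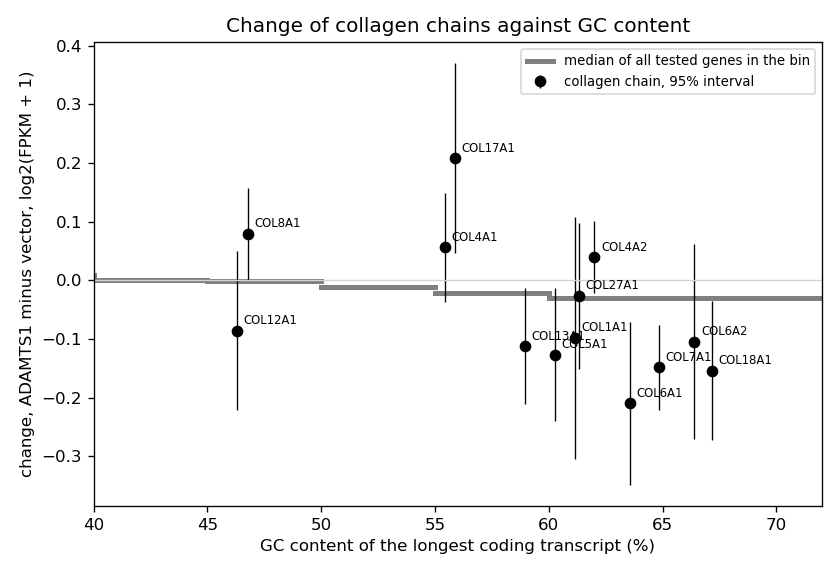
Change of each tested chain in log2(FPKM + 1), with its 95% interval, against the GC percent of its longest coding transcript, with grey lines for the median change of all tested genes in each GC bin. COL18A1, at 67.2% GC, has a change of −0.15, COL17A1, at 55.9%, has 0.21, and the grey line above 60% GC lies at −0.030.

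Antisense genes named for the chains were low. The 5 found were COL5A1-AS1, COL4A2-AS1, COL4A2-AS2, COL18A1-AS1 and COL18A1-AS2, with no library above 0.854 FPKM. COL18A1-AS2 averaged 0.0799 FPKM in ADAMTS1 cells and 0.372 FPKM in vector cells. The means of the others lay closer: COL5A1-AS1 0.443 and 0.420, COL4A2-AS1 0.367 and 0.330, COL4A2-AS2 0.0518 and 0.0631, COL18A1-AS1 0.0945 and 0.0910 FPKM. All 5 lay below the filter. No source used here says whether strand was kept in counting, so reads of overlapping genes on opposite strands could not be separated.

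The enzymes and partners of collagen were described with 88 listed genes in 5 groups, of which 80 were in the table and 58 were tested. The lists were chosen with earlier results of these data known. The shares here and in the 5 groups below therefore cannot show that partner genes changed more often than others. In all, 3 rose and 1 fell by limma with an adjusted p under 0.05 (6.9% of the 58, beside 0.0672% of all genes tested). At an unadjusted p under 0.05, 13 were higher (22.4%, beside 5.42%) and 4 lower (6.9%, beside 6.78%), so the share on the lower side was near that of all genes. The medians of the 5 groups lay between −0.028 and 0.071 on the log2(FPKM + 1) scale. The count of 4 was 2 without ADAMTS1 replicate 3 and 0 without each of the other libraries in turn.

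Of 16 tested genes for hydroxylation, glycosylation and folding of chains, 0 passed by limma, with 2 higher (12.5%, beside 5.42% of all genes) and 1 lower (6.25%, beside 6.78%) at an unadjusted p under 0.05. COLGALT1, which glycosylates hydroxylysine, was at 76.9 ± 2.57 FPKM in ADAMTS1 cells and 77.4 ± 2.08 FPKM in vector cells, and P4HB, the beta subunit of prolyl hydroxylase, was at 51.5 and 52.0 FPKM in ADAMTS1 and vector cells. SERPINH1, the collagen chaperone of the endoplasmic reticulum, was at 33.0 ± 0.931 FPKM in ADAMTS1 cells and 30.7 ± 0.481 FPKM in vector cells (limma adjusted p = 0.296). P4HA1, a catalytic subunit of prolyl hydroxylase, was at 23.1 and 24.2 FPKM in ADAMTS1 and vector cells, and TMEM38B, an endoplasmic reticulum cation channel, at 11.1 and 10.2 FPKM.

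Of 10 tested genes for export and propeptide removal, 0 passed by limma, with 1 higher (10%, beside 5.42% of all genes) and 0 lower (beside 6.78%) at an unadjusted p under 0.05. PCOLCE2, an enhancer of propeptide cleavage, was at 2.29 ± 0.443 FPKM in ADAMTS1 cells and 1.56 ± 0.0829 FPKM in vector cells (limma adjusted p = 0.297). The protease gene FURIN was at 28.8 and 28.4 FPKM, and the coat protein gene SEC13 at 22.6 and 23.6 FPKM, in ADAMTS1 and vector cells.

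Of 9 tested cross-linking and fibril-associated genes, THBS1 rose and SPARC fell, with 3 higher (33.3%, beside 5.42% of all genes) and 2 lower (22.2%, beside 6.78%) at an unadjusted p under 0.05. THBS1, a matrix glycoprotein, was at 82.3, 83.9 and 85.01 FPKM in ADAMTS1 libraries and 67.0, 70.4 and 69.3 FPKM in vector libraries (change 0.28 ± 0.027, limma adjusted p = 0.0417). SPARC, a collagen-binding glycoprotein, was at 1.36, 1.27 and 1.75 FPKM in ADAMTS1 libraries and 3.29, 3.26 and 3.56 FPKM in vector libraries (change −0.83 ± 0.088, limma adjusted p = 0.0431). With a pseudocount of 0.1, 0 genes passed on the lower side, so SPARC did not pass in that setting. The cross-linking oxidase LOXL2 was at 55.7, 56.8 and 58.3 FPKM in ADAMTS1 libraries and 70.5, 65.0 and 67.2 FPKM in vector libraries. Its groups lay apart without passing (limma adjusted p = 0.0922), and among genes of at least 5 FPKM its adjusted p was 0.0349. That was the only setting in which LOXL2 passed, and 31 genes passed there, against 8 in the fit reported. LOX, the founding enzyme of that family, was at 7.68 and 7.01 FPKM in ADAMTS1 and vector cells, and TGFBI, a collagen-binding adhesion protein, at 63.1 and 56.0 FPKM.

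Of 11 tested genes of degradation and uptake, 2 rose, with 5 higher (45.5%, beside 5.42% of all genes) and 1 lower (9.09%, beside 6.78%) at an unadjusted p under 0.05. MMP1, the interstitial collagenase, was at 14.7, 14.3 and 13.4 FPKM in ADAMTS1 libraries and 9.74, 9.001 and 9.50 FPKM in vector libraries (change 0.54 ± 0.046, limma adjusted p = 0.0246). PLAU, the urokinase that activates plasmin, was at 119, 121 and 119.6 FPKM in ADAMTS1 libraries and 101, 104 and 100.2 FPKM in vector libraries (change 0.24 ± 0.024, limma adjusted p = 0.0417). MMP14, a membrane-bound collagenase, was at 124 FPKM in both groups. MRC2, the endocytic collagen receptor, was at 9.36 ± 0.619 FPKM in ADAMTS1 cells and 10.9 ± 1.07 FPKM in vector cells (limma adjusted p = 0.364). MMP3, TIMP2 and CTSL, a stromelysin, a metalloprotease inhibitor and a lysosomal protease, had unadjusted p under 0.05 on the higher side, with limma adjusted p of 0.303, 0.357 and 0.336.

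Of 12 tested collagen receptors, 0 passed by limma, with 2 higher (16.7%, beside 5.42% of all genes) and 0 lower (beside 6.78%) at an unadjusted p under 0.05. ITGA2, the alpha subunit of the main collagen integrin, was at 20.8 ± 0.915 FPKM in ADAMTS1 cells and 19.4 ± 0.377 FPKM in vector cells (limma adjusted p = 0.379), and its beta subunit ITGB1 was at 67.4 and 67.9 FPKM in ADAMTS1 and vector cells. SDC1, a heparan sulfate receptor, was at 54.5 and 51.7 FPKM, and the hyaluronan and collagen receptor CD44 at 83.6 and 80.5 FPKM, in ADAMTS1 and vector cells.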

How the data were processed

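RNA-seq of MDA-MB-231 cells gave 6 libraries in 2 groups, 3 with ADAMTS1 and 3 with the vector, as the labels give them. Total RNA was extracted with a Trizol-type kit, per the labels' protocols. The values used were FPKM per gene that the authors deposited, and FastQC, HISAT2 and StringTie with the build hg38 are named in the submitters' processing notes, without versions. The annotation used for quantification is not given in the sources used here. FPKM corrects for length and library total, so a change is relative to the rest of the library, and it is not a count.

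The table held 32119 entries. Where a symbol was repeated, its most abundant entry stayed, which removed 284 and left 31835 genes. The limma package (3.58.1, R 4.3.3; lmFit, then eBayes with trend) was applied to genes with a mean of at least 1 FPKM, on log2(FPKM + 1) with a pseudocount of 1, which reduces the fold change of low genes. P-values were two-sided and adjusted over 11897 genes (Benjamini-Hochberg, threshold 0.05). The fit had 4 residual degrees of freedom, and the procedure was tested on simulated data. Relative depth came from the steps between low FPKM values, and 17 low chains were read as steps, with the largest departure from a whole number 0.00327 of a step. GC content and length came from GENCODE 29, which had a value for all 40 chains and 99.5% of tested genes. Python 3.11.15, pandas 2.3.3, NumPy 2.4.6 and Matplotlib 3.10.9 were used.

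Chains of at least 1 FPKM were named. For partner lists, the rule named members past the threshold, those with an unadjusted p under 0.05 and the 2 with the highest mean. The members and lists were chosen with earlier results of these data known. Alternatives were another pseudocount, filter, scaling, variance model, a replicate block, each library left out, and, added after the data were seen, adjustment for GC content.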

Additional observations from a re-analysis of the deposited data

How the results depend on the processing

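Of 13 chains 0 passed in the fit reported and in all 15 alternatives, and ADAMTS1 passed in all. The 8 genes past the threshold were 1 with no filter, 31 at a mean FPKM of at least 5, 3 with a common sum, 2 without trend and 1 to 5 with a library left out. The 4 partner genes were 3 with a pseudocount of 0.1, 0 with no filter, 2 with upper-quartile scaling, 1 with a common sum, 0 without trend and 0 to 2 with a library left out. Same-numbered libraries did not deviate together (r −0.0022, 0.0177 and −0.0934). The labels state no pairing, and these values cannot decide whether same-numbered libraries were prepared together. A replicate block gave 0 chains, 1 gene and 0 partner genes.

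The chain median (−0.098) was −0.114 with a pseudocount of 0.1, −0.109 at a mean FPKM of at least 5, −0.0336 with upper-quartile scaling, −0.0704 after GC adjustment and −0.102 to −0.0756 with a library left out. Signs turned as follows, on the log2(FPKM + 1) scale. With upper-quartile scaling COL27A1 was 0.0396, P4HA1 0.00756, COLGALT1 0.0679, P4HB 0.0639, SEC13 0.0161, MMP14 0.0758 and ITGB1 0.0655. After GC adjustment COL27A1 was 0.00189, COLGALT1 0.0135, P4HB 0.0103 and MMP14 0.0220, and by the median of ratios MMP14 was 0.00638. With a library left out COL27A1 lay between −0.0603 and 0.0122, COLGALT1 between −0.0309 and 0.0162, P4HB between −0.0286 and 0.00958 and MMP14 between −0.0157 and 0.00853. The cause was not tested. With 3 libraries per group and unknown absolute depth, the intervals of the 13 chains reached −0.349 and 0.370.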
